A study of Mus musculus with 12 samples.

Results

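Cluster 0 was one of 4 clusters that the authors' deposited clustering formed among mouse hepatocyte nuclei after 24 hours of culture. Its members were chosen by 3 entries in the authors' table of single nuclei: the sample type Primary Hepatocytes, the cell type Cultured Cells and the cluster number 0. By this rule it held 5961 nuclei of 14760 cultured hepatocyte nuclei, of 18394 nuclei from Primary Hepatocytes and of 53467 nuclei in the series. The other cultured hepatocyte clusters, numbered 1, 14 and 17, held 5846, 1682 and 1271 nuclei.

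The study followed gene expression in hepatocytes as they were taken from the liver and put into culture. Each of 8 male mice aged 10 to 12 weeks gave 3 samples: frozen liver tissue (Liver), hepatocytes taken directly after collagenase perfusion (Cell Suspension) and hepatocytes kept for 24 hours on collagen (Primary Hepatocytes). All animals were wild type, on a chow diet and without an experimental agent. The strain was given as C57BL6J in the labels and as C57BL/6NTac in the study's methods. By those methods the culture medium held dexamethasone, insulin and serum, and cultured cells were detached with trypsin before freezing. The effects of these steps and of culture itself cannot be told apart here. Nuclei of 4 samples at a time, told apart by hashtag antibodies, shared 1 of 6 pools, and each pool gave 1 single-nucleus library of RNA molecules counted by unique molecular identifiers (UMIs). The mouse is the replicate, and levels and tests below are over mice, n = 8, whereas shares of nuclei are pooled over mice unless a spread is given. The UMIs of cluster 0 summed to between 3025170 and 12535153 per mouse. Only 2 of the 6 pools held both Liver and Primary Hepatocytes, so differences between these sample types and between pools can largely not be told apart. Of 5955 barcodes in cluster 0, 6 occurred in more than 1 pool.

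Hepatocytes in the liver are polarised cells held in plates, and they carry out bile acid synthesis, drug metabolism and the secretion of plasma proteins. On a flat collagen surface they spread, assemble actin cables and focal adhesions, and lose much of this programme, a course known as dedifferentiation. The transcriptional regulators YAP and TEAD read cell spreading and actin tension, and AP-1 (Fos and Jun proteins) responds to isolation and growth signals.

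The 8 genes by which cluster 0 is recognised have different roles. Sorbs2 encodes an adaptor that links actin cables to focal adhesions, Anxa3 a calcium-dependent membrane-binding annexin, Robo1 a receptor for Slit guidance proteins and Pdzrn3 a ubiquitin ligase. Sprr1a encodes a small proline-rich protein best known from stratified epithelia and injured neurons, Pkhd1 the fibrocystin of the primary cilium in bile ducts and kidney, Aldh1a1 an enzyme that makes retinoic acid, and Creb5 a leucine zipper transcription factor. Because the clusters were drawn from gene expression, differences of these or any other genes between cluster 0 and the other clusters are descriptions and carry no test.

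RefSeq promoters of build GRCm38.p6 were found for 7 of the 8 markers, at 11 transcription starts. They are shown because markers that stood together in 1 cluster can be looked at for shared letters. The AP-1 motif TGANTCA, which reads the same on both strands, occurred in 3 of the 11 entries (27.3%) and in 6.75% of all 32851 promoters. It stood 146 and 116 bases upstream of the start of Sprr1a, 45 bases upstream of the second start of Creb5, which lies inside the annotated gene, and 57 bases upstream of the first start of Aldh1a1. The TEAD motif GGAATG, searched on both strands and found in 12.6% of all promoters, occurred once, on the reverse strand of Aldh1a1. The 2 motifs do not overlap there. The 250 bases upstream of these 3 starts are given 5′ to 3′ on the gene's strand, with the matches in capitals and the TEAD match read as CATTCC. These are matches of letters only, and binding was not measured.
Sprr1a, chr3:92485882-92486131, minus strand: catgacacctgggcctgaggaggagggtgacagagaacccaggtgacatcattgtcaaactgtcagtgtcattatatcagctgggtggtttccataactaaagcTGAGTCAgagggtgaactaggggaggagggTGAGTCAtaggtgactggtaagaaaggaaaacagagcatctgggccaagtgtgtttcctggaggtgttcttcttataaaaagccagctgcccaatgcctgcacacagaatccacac
Creb5, chr6:53573124-53573373, plus strand: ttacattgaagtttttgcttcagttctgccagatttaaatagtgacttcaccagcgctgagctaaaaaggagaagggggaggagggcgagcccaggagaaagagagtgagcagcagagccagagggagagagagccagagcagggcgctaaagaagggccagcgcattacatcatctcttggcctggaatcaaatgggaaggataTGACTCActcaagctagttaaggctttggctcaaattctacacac
Aldh1a1, chr19:20492333-20492582, plus strand: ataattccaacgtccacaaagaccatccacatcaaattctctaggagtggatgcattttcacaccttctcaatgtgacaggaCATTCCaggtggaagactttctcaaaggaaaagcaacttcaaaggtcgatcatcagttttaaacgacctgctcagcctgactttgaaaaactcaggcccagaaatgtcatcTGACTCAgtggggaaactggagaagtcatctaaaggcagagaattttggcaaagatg

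Within cluster 0 the most abundant marker was Sorbs2. Levels are given as CPM, a gene's UMIs scaled to a common library total, in the nuclei summed per mouse, and as the lowest, median and highest mouse. Sorbs2 stood at 3229, 3934 and 4924 CPM in cluster 0, against 561.5, 716.3 and 1034 in cluster 1, 642.7, 765.2 and 977.3 in cluster 14, and 84.34, 157.1 and 269 in cluster 17. The lowest mouse of cluster 0 thus lay above the highest mouse of each other cluster. The median difference over mice was 2.38 on the log2(CPM + 1) scale over cluster 1, 2.31 over cluster 14 and 4.55 over cluster 17. Sorbs2 lies on chromosome 8 at 45507788-45827906 (plus strand, GRCm38), and of its UMIs in cluster 0 that could be told as spliced or unspliced 6.44% were spliced.

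Creb5 was the second in level, at 1023, 1383 and 1453 CPM, against 358.7, 652 and 704.5 CPM in cluster 1. The groups did not overlap, but the median log2 difference of 1.11 was the smallest of the 8 markers. Cluster 17 held the least, at 60.4, 115.5 and 193.8 CPM, and cluster 14 stood near cluster 1. Creb5 (chromosome 6, 53287270-53700376, plus strand) encodes a protein of the family that can pair with Jun.

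Robo1 stood at 261.2, 309.4 and 606 CPM in cluster 0 and at 43.69, 63.66 and 134.9 CPM in cluster 1. Anxa3 stood at 168.2, 229 and 342.9 CPM against 21.58, 45.65 and 73.76 CPM. Pkhd1 stood at 184.1, 235.9 and 311.4 CPM against 24.72, 43.73 and 50.66 CPM. For these 3 genes the clusters did not overlap, and their median log2 differences over cluster 1 were close to each other, at 2.45, 2.45 and 2.44. Robo1 spans 72308306-73046095 on chromosome 16 (plus strand), Anxa3 96793339-96845966 on chromosome 5 (plus strand) and Pkhd1 20057779-20618064 on chromosome 1 (minus strand). By the same measure no more than 13.9% of the UMIs of any of them were spliced.

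Aldh1a1 stood at 151.8, 222.9 and 283.1 CPM in cluster 0 and at 18.45, 28.15 and 46.42 CPM in cluster 1, a median log2 difference of 2.96. Cluster 14 (41.78, 77.99 and 115.3 CPM) and cluster 17 (18.24, 49.56 and 114.4 CPM) lay between them. Aldh1a1 (chromosome 19, 20492715-20643465, plus strand) has the closely similar neighbour Aldh1a7, and how reads common to both were divided could affect its level.

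Over cluster 1 the greatest relative difference among the markers belonged to Sprr1a, with 104.3, 142.6 and 201.4 CPM in cluster 0 and 3.524, 6.559 and 15.45 CPM in cluster 1. This was a median of 19-fold. Cluster 14 (22.24, 37.05 and 73.52 CPM) and cluster 17 (8.4, 39.32 and 81.32 CPM) held more of it, and over them cluster 0 was 2.95-fold and 3.05-fold higher. The gene (chromosome 3, 92483952-92485895, minus strand) is short, and 82.6% of its UMIs were spliced by that measure.

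Pdzrn3 separated the mice more than the clusters. Its 8 mice stood at 58.2, 8.91, 410, 29.5, 63.7, 10.3, 567 and 69.6 CPM in cluster 0, in the order of mouse 1 to 8. Mice 3 and 7 were high, and the highest mouse was 63.6-fold above the lowest, against 1.42-fold to 2.32-fold for the other 7 markers. In cluster 1 it stood at 6.095, 20.18 and 61.4 CPM, which overlaps cluster 0, and cluster 0 was higher in 7 of 8 mice. Mice 3 and 7 also had the lowest share of mitochondrial UMIs in cluster 0, 0.236% and 0.232% against 0.353% to 0.438% in the other mice, and the part of this in the level of Pdzrn3 was not tested. The 2 mice were in different pools, 5 and 4. Itga2, the collagen-binding integrin subunit, was also highest in these 2 mice, at 127 and 119 CPM against 17.6 to 66.4 CPM in the others.

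**Figure D1:**
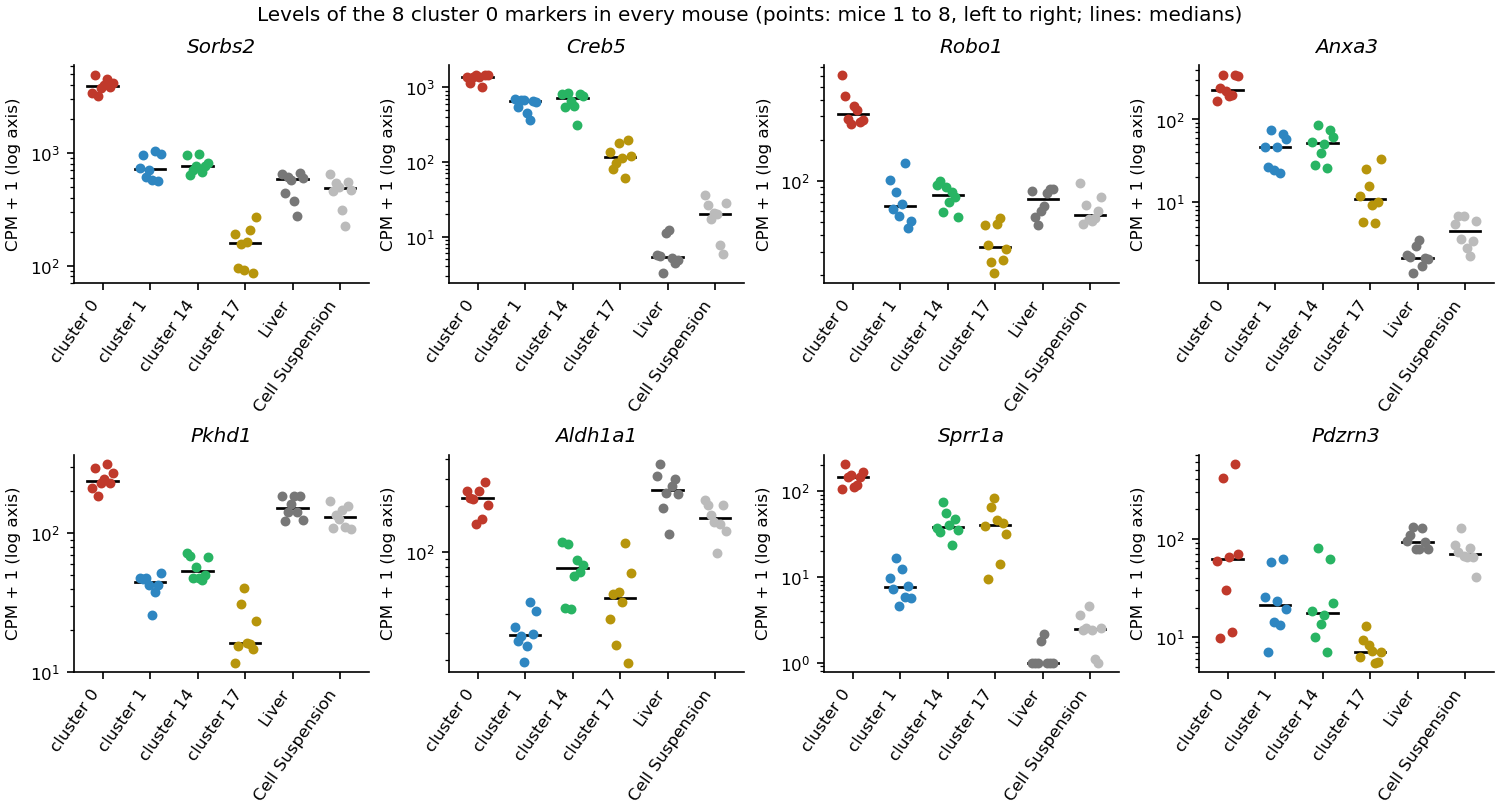
Levels of the 8 markers (CPM + 1, log axis) in every mouse for the 4 cultured hepatocyte clusters and for Liver and Cell Suspension hepatocytes, with points for mice and lines for medians. Sorbs2 in cluster 0 runs from 3229 to 4924 CPM in all 8 mice, whereas Pdzrn3 runs from 8.912 to 566.7 CPM.

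At the level of single nuclei, each nucleus was thinned to 1000 UMIs so that depth did not set the shares. Sorbs2 had a UMI in 87.9% of cluster 0 nuclei, 33.5% of cluster 1, 29.4% of cluster 14 and 15.2% of cluster 17. The cultured endothelial nuclei, a cell type that should hold little hepatocyte RNA, gave 31.5%, close to clusters 1 and 14 and above cluster 17. Creb5 was seen in 63.6% of cluster 0 nuclei against 10.4% of endothelial nuclei, Robo1 in 23.7% against 9.79%, Anxa3 in 19.7% against 6.29% and Pkhd1 in 18.7% against 3.03%. Aldh1a1 was seen in 13.9% against 5.33%, Sprr1a in 10.1% against 1.35% and Pdzrn3 in 9.53% against 1.27%. By mouse, the cluster 0 shares lay above the highest endothelial share for 6 of the 8 markers. They overlapped for Sprr1a (7.41% to 13.3% against 0 to 8.33%) and for Pdzrn3 (1.11% to 25.5% against 0 to 8.33%). Thinning kept 99.9% of cluster 0 nuclei and 72.5% of the endothelial nuclei, whose median depths before thinning were 7372 and 1351 UMIs, and the unthinned share for Sorbs2 in cluster 0 was 97.6%. At 1000 UMIs, 46.4% of cluster 0 nuclei showed at least 3 of the 8 markers, against 4.42% in cluster 1, 6.54% in cluster 14, 0.472% in cluster 17 and 2.87% in endothelial nuclei.

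Across all genes, cluster 0 stood apart from cluster 1 by few. Of 9353 genes with at least 10 CPM in either cluster, 116 were at least 2-fold higher in cluster 0 in every mouse (1.24%) and 22 were at least 2-fold lower in every mouse (0.235%). Of the 8 markers, 6 were among the higher genes, all but Pdzrn3 and Creb5. Against cluster 14, 83 of 10336 genes were higher (0.803%) and 801 lower (7.75%), with 4 markers among the higher genes. Against cluster 17, 447 of 9717 genes were higher (4.6%) and 294 lower (3.03%), with 5 markers among the higher. The markers were named from these same contrasts, so nothing is read from their counts.

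Besides the markers, the genes of at least 50 CPM with the greatest median difference over cluster 1 were Ccn2, Osbpl3, Npas2 and Itga2. Ccn2 (chromosome 10, 24595442-24598683, plus strand), a secreted matrix protein and a standard YAP and TEAD target, averaged 70.1 CPM in cluster 0, 3.82 in cluster 1, 10.7 in cluster 14 and 2.31 in cluster 17. Among genes of at least 50 CPM it was the leading one over clusters 14 and 17, with log2 differences of 2.78 and 4.76. Cultured endothelial nuclei held 60.7 CPM, close to cluster 0. The oxysterol-binding protein gene Osbpl3 averaged 85.7 CPM against 14.6 in cluster 1, and Npas2, a clock transcription factor, 55.3 against 9.47 CPM. Kynu of tryptophan breakdown (157 CPM against 34.4 in cluster 14), the GTPase-activating protein gene Dlc1 (250 against 46.2 CPM) and Pklr, the liver pyruvate kinase (60.0 against 10.8 CPM), were among the leading genes over cluster 14.

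Other genes lay lower in cluster 0. Slc39a8, a zinc transporter, averaged 11.2 CPM against 78.5 in cluster 1, Plcl1, an inactive phospholipase-like protein, 115 against 619 CPM, and Il1r1, the receptor of interleukin 1, 336 against 1008 CPM. The lowest genes against cluster 14 included Grm4, a glutamate receptor, at 1.46 against 303 CPM, and Srsf12, a splicing regulator, at 1.47 against 182 CPM. The cell cycle gene Mki67 averaged 4.15 CPM in cluster 0 and 29.7 in cluster 14. Against cluster 17 they included the forkhead factor Foxq1 (3.65 against 104 CPM) and the clock gene Ciart (2.60 against 72.9 CPM).

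The gene lists were also compared between the clusters, beside the markers, which were named from these same contrasts. Against cluster 1 the biliary list had the highest median after the markers (1.27, 6 members past the CPM minimum), and retinoid genes stood at 0.99 (8 members) and annexins at 0.74 (7 members). These lists hold the markers Pkhd1, Aldh1a1 and Anxa3, and Bicc1 of the biliary list passed the minimum through cluster 0 alone. Nothing is therefore read from the order of the lists. Of 20 actin and focal adhesion genes past the CPM minimum against cluster 1, 2 were at least 2-fold higher in every mouse, the marker Sorbs2 and Lima1, and none lower, with a median log2 difference of 0.57 beside -0.12 over all genes. Without Sorbs2 it was 1 of 19, with a median of 0.56. These genes summed to 7031 ± 1131 CPM (SD, n = 8) in cluster 0 with Sorbs2 left out, and to 4599 CPM in cluster 1, 4001 in cluster 14 and 4197 in cluster 17. Actn1, the alpha-actinin that cross-links actin cables, averaged 449 CPM against 168 in cluster 1, Flna, filamin A, 135 against 49.1 CPM, and Lima1, an actin-bundling protein, 310 against 61.7 CPM. Of 10 YAP and TEAD genes past the minimum, 2 were higher than in cluster 1 (Ccn2 and Ankrd1), beside 1.24% of all genes. Both passed the minimum through cluster 0 alone, so nothing is read from this count. The list's median, which includes these 2 genes, was 0.43 over cluster 1, 0.83 over cluster 14 and 1.31 over cluster 17. Over all genes the medians were -0.12, -0.10 and -0.06. The list summed to 1854 CPM in cluster 0 and to 1661, 1172 and 1187 CPM in clusters 1, 14 and 17. Ankrd1, a cardiac and injury-response ankyrin protein, averaged 48.1 CPM against 2.16, 2.48 and 1.58 CPM in clusters 1, 14 and 17. Ccn1, another target, averaged 211 CPM against 105, 69.2 and 50.4 CPM, and Tead1 itself 687 CPM against 807, 531 and 596 CPM.

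Among 15 liver transcription factors past the minimum, 3 lay at least 2-fold higher than cluster 1 in every mouse, with a list median of 0.43. Of all genes 1.24% did so. Nr1h4, the bile acid receptor FXR, averaged 190 against 68.4 CPM, Nr1i2, the drug receptor PXR, 72.1 against 25.5 CPM and Nr5a2, a regulator of bile acid genes, 160 against 55.4 CPM. Against cluster 14, 1 of 14 factors was higher by this rule and 0 lower, beside 0.803% and 7.75% of all genes. Against cluster 17, 3 of 15 were higher and 2 lower, beside 4.6% and 3.03%. Hnf4a, the central hepatocyte factor, averaged 199 CPM in cluster 0 and 227 in cluster 1. Of 20 hepatocyte products and enzymes, none was 2-fold higher or lower in every mouse than in any of the other 3 clusters. The same held for all 77 cytosolic ribosomal protein genes against cluster 1. Few of all genes met this rule (1.24% higher and 0.235% lower against cluster 1), so these counts do not show equal levels. Nrf2 targets, the genes of oxidative stress defence, summed to 5308 CPM in cluster 0 and to 5012, 4529 and 11436.8 CPM in clusters 1, 14 and 17. Of 10 past the minimum, 4 were at least 2-fold lower in every mouse than in cluster 17, beside 3.03% of all genes. Against cluster 14 it was 1 of 10, beside 7.75%, and against cluster 1 none. Cdh1, the epithelial cadherin, averaged 255 CPM against 114, 82.1 and 102 CPM in clusters 1, 14 and 17.

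Cluster 0 was next compared with hepatocyte nuclei of Liver and of Cell Suspension, which held 14998 and 12589 nuclei. Counts were summed per mouse and tested with edgeR's quasi-likelihood test, adjusted over all 25650 genes (Benjamini-Hochberg). The 2 comparisons share the cluster 0 sums and are set side by side only. Against Liver 22.6% of genes were higher and 26.5% lower, and against Cell Suspension 23.4% were higher and 23.8% lower. The balance turned with RLE normalization, from 5791 higher and 6803 lower to 6611 and 6012 against Liver and from 6000 and 6116 to 6313 and 5814 against Cell Suspension, and thinning to the smallest total left 6689 and 6481 calls. Fitted log2 fold changes use TMM normalization, whose factors were 1.2 to 1.45 in cluster 0 and 0.836 to 1.04 in Liver and 0.745 to 0.922 in Cell Suspension, so they lie below the ratio of the CPM values. Since nuclei were clustered on the same genes, the log2 differences and calls of cluster 0 are descriptions of nuclei so chosen. List counts are therefore also given for all nuclei of each sample, whose groups rest on the hashtag alone and which include other cell types, and the p-values of single genes come from that fit. In that fit 28.6% of genes were higher and 27.1% lower than in Liver, and 27.4% and 23.4% than in Cell Suspension.

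Of the 8 markers, 5 were higher than in Liver (Sorbs2, Anxa3, Robo1, Sprr1a and Creb5), 1 was lower (Aldh1a1) and 2 did not pass. With all nuclei of each sample, 5 were higher and 2 lower. Against Cell Suspension the same 5 were higher and none was lower, and with all nuclei 5 were higher and 2 lower. Aldh1a1 had a log2 difference of -0.24 from Cell Suspension in cluster 0, -1.10 in all cultured hepatocyte nuclei, -1.30 with spliced counts of cluster 0 alone and -0.93 in all nuclei (edgeR adjusted p = 7.2e-05). The markers fell into 2 kinds. Anxa3, Creb5 and Sprr1a were close to absent from the hepatocyte nuclei of Liver, while Sorbs2, Robo1, Pkhd1, Aldh1a1 and Pdzrn3 were already there.

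Sprr1a stood at 0 CPM in 6 of 8 Liver samples, with a highest value of 1.137 CPM, and at 0, 1.459 and 3.51 CPM in Cell Suspension. The fitted log2 difference of cluster 0 was 8.34 from Liver (SE 0.54, and 9.93 without mouse 5, whose Liver sample held the 1.137 CPM) and 5.63 from Cell Suspension (SE 0.47). In all nuclei it was 7.18 (edgeR adjusted p = 3.5e-11) and 4.29 (edgeR adjusted p = 4.3e-08). Creb5 stood at 2.219, 4.345 and 11.1 CPM in Liver and at 4.842, 19.13 and 34.81 CPM in Cell Suspension. Its log2 differences were 7.44 (SE 0.39) and 5.44 (SE 0.36), and 6.30 and 4.51 in all nuclei (edgeR adjusted p = 1.1e-14 and 2.7e-12). Anxa3 stood at 0.3769, 1.126 and 2.516 CPM in Liver, a log2 difference of 7.14 (SE 0.35), and of 3.13 in all nuclei (edgeR adjusted p = 1.8e-09). All 8 cluster 0 values of these genes lay above all Liver and Cell Suspension values.

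Sorbs2 stood at 276.3, 585.6 and 658.6 CPM in Liver and at 222.5, 483.9 and 646.6 CPM in Cell Suspension. These levels are close to those of clusters 1 and 14, and only cluster 0 among the 4 clusters exceeded the highest Liver sample in every mouse. In cluster 14 all mice but the lowest, at 642.7 CPM, did so too. The log2 difference was 2.47 from either group (SE 0.21 from Liver). Robo1 stood at 46.48, 72.5 and 86.31 CPM in Liver, with a log2 difference of 1.88 (SE 0.19). With all cultured hepatocyte nuclei in place of cluster 0 the differences from Liver were 1.51 for Sorbs2 and 1.00 for Robo1. In all nuclei they were 1.76 (edgeR adjusted p = 5.9e-09) and 0.69 (edgeR adjusted p = 0.00202).

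Pkhd1 stood at 120.6, 150.6 and 185.2 CPM in Liver, just overlapping the lowest cluster 0 mouse at 184.1 CPM. Its log2 difference of 0.20 (SE 0.15) was not called. It depended on the nuclei and counts used, with 0.74 for spliced counts of cluster 0, -0.80 for all cultured hepatocyte nuclei and -0.61 for all nuclei (edgeR adjusted p = 0.000374). Aldh1a1 stood at 130.4, 253.3 and 370.5 CPM in Liver and overlapped cluster 0. Its log2 difference was -0.66 (SE 0.17), and the call was lost when all samples were thinned to the smallest total (-0.37), while spliced counts alone gave -1.62. In all nuclei it was -1.30 (edgeR adjusted p = 4.9e-07). Pdzrn3, at 76.77, 92.38 and 129.8 CPM in Liver, had a log2 difference of 0.22 (SE 0.54), its direction turned without mouse 3 or without mouse 7, and in all nuclei it was -0.53 (edgeR adjusted p = 0.390). For all 3 genes the medians of clusters 1, 14 and 17 lay below that of Liver.

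The actin and focal adhesion genes were higher as a group. Of 21 tested, 18 were higher than in Liver and 1 lower (Sorbs3, a vinexin adaptor, -1.47), with a median log2 difference of 1.97 beside -0.03 over all genes. With all nuclei of each sample the counts were 16 and 2. Flna averaged 0.852 CPM in Liver and 135 in cluster 0 (6.83), Myh9, the non-muscle myosin heavy chain, 114 and 919 CPM (2.55), and Tpm1, a tropomyosin, 38.5 and 344 CPM (2.70). Against Cell Suspension 15 were higher and 4 lower (median 1.22, and 13 and 4 with all nuclei). Among the lower in the fit were the actin genes Actb, whose plain levels were close (596 CPM in Cell Suspension, 562 in cluster 0, -0.74) and Actg1 (459 and 256 CPM, -1.51), which were higher than in Liver by 3.11 and 3.64.

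Of 12 YAP and TEAD genes, 10 were higher than in Liver and 1 lower (median 1.57), and 7 and 1 with all nuclei. Ccn2 rose from 0.158 CPM in Liver to 70.1 in cluster 0 (log2 difference 7.96, SE 0.43), and Ankrd1 from 0.146 to 48.1 CPM (7.70). With all nuclei of each sample, which include endothelial cells, these were 3.92 (edgeR adjusted p = 2.4e-11) and 6.23. Ccn1 was higher than in Liver (3.85) and lower than in Cell Suspension in the fit (-0.80), although its plain levels were close, at 211 CPM in cluster 0 and 232 in Cell Suspension.

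Of 14 integrin, laminin and fibronectin genes, 8 were higher and 4 lower than in Liver, with the same counts with all nuclei. Of all genes in the cluster 0 fit 22.6% were higher and 26.5% lower. The share of lower members lay near that of all genes, so nothing is read from it. Itga2 averaged 58.3 CPM against 3.71 in Liver (3.55), and the laminin receptor subunit Itga3 was higher by 2.71. The collagen receptor subunit Itga1 (-1.21) and the laminin chain Lamb3 (-3.43) were lower. Of 9 annexins, 4 were higher and 1 lower than in Liver (5 and 4 with all nuclei). Besides the marker Anxa3, given above, the higher ones included Anxa2 (1.19 CPM in Liver, 248 in cluster 0, 7.20) and Anxa5 (10.4 and 232 CPM, 4.03).

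Around Robo1, the guidance genes showed no common direction, with 7 of 16 higher and 3 lower than in Liver (median 0.23, and 5 and 6 with all nuclei). The ligand genes Slit2 and Slit3 averaged 3.88 and 6.5 CPM in cluster 0, and the paralogous receptor Robo2 5.41 CPM, and none of the 3 passed the test against Liver. Unc5b, a netrin receptor, averaged 88.5 CPM against 3.76 in Liver (4.19). Nrp1, a semaphorin and VEGF co-receptor, was lower (104 against 598 CPM, -3.04).

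Around Aldh1a1, the retinoid genes were lower more often than higher, with 3 of 15 higher and 8 lower than in Liver (median -0.59, and 1 and 9 with all nuclei). Rarb, a retinoic acid receptor and target gene, averaged 152 CPM against 33.6 in Liver (1.70) and 51.9 in cluster 1, and did not pass with all nuclei of each sample (0.36). Dhrs3, which reduces retinaldehyde, averaged 55.5 CPM against 150 in Liver (-1.88).

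Around Pkhd1, the biliary genes were mostly higher than in Liver. Of 13 biliary genes tested, 8 were higher and 1 lower than in Liver (median 1.65, and 6 and 4 with all nuclei). The duct keratins Krt19 and Krt7 averaged 0.230 and 0.482 CPM in cluster 0, and the duct surface protein Epcam 0.582 CPM. Spp1, osteopontin, averaged 4.93 CPM against 0.312 in Liver (3.42). Sox9, a duct and progenitor factor, averaged 22.2 CPM against 2.52 in Liver (2.69) and 35.6 in cluster 1. Bicc1, an RNA-binding protein of cystic kidney disease, averaged 37.2 CPM against 7.79 in cluster 1 and 5.90 in Liver (2.23), but had the opposite sign with all nuclei of each sample (-0.59).

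**Figure D2:**
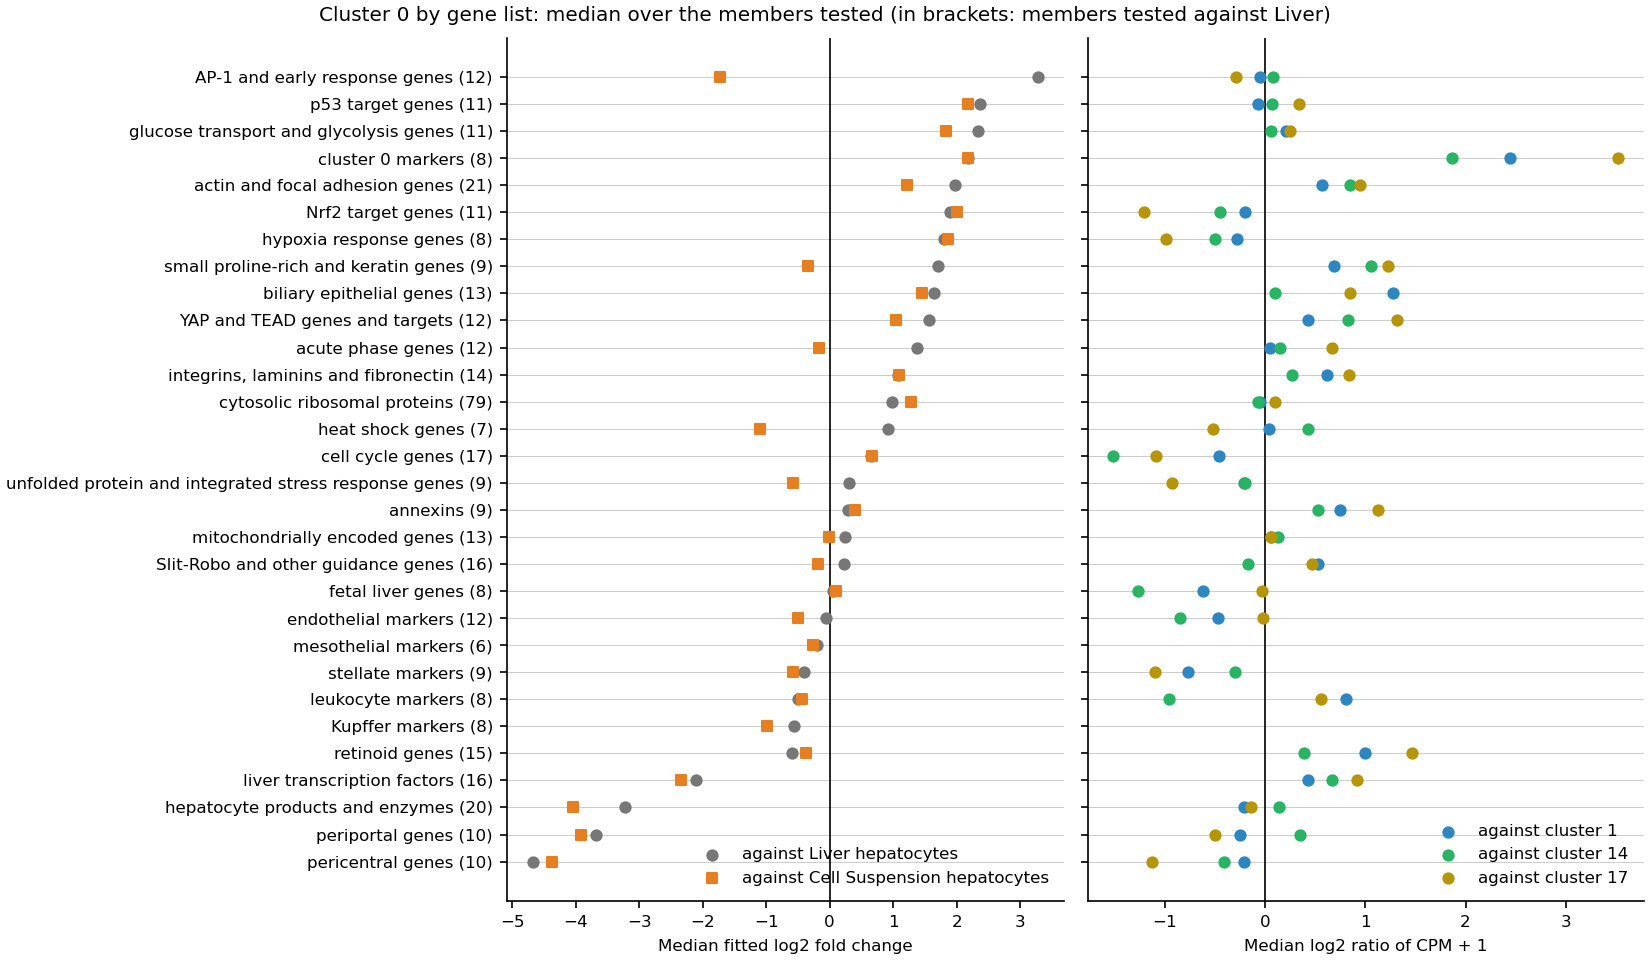
Median log2 difference of each gene list between cluster 0 and Liver or Cell Suspension hepatocytes (fitted) and between cluster 0 and clusters 1, 14 and 17 (log2(CPM + 1) medians over mice), with the number of members tested in brackets. Actin and focal adhesion genes stood at 1.97 against Liver and 0.57 against cluster 1, and hepatocyte products and enzymes at -3.22 against Liver.

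The AP-1 and early response genes moved in opposite ways in the 2 comparisons. Of 12, 11 were higher and none lower than in Liver (median 3.29), while 4 were higher and 8 lower than in Cell Suspension (median -1.73). With all nuclei the counts were 12 and 0, and 4 and 7. Fos averaged 3.50 CPM in Liver, 293 in Cell Suspension and 66.2 in cluster 0, and Jun 51.5, 1658 and 219 CPM. Fosl1, a late Fos family member, had a different order, at 0.245, 1.08 and 50.2 CPM. Fos averaged 37.4, 25.0 and 25.1 CPM in clusters 1, 14 and 17.

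Several stress and growth lists were higher than in Liver with few or no members lower. All 11 p53 targets were higher (median 2.37), among them the cell cycle inhibitor Cdkn1a (0.959 CPM in Liver, 113 in cluster 0, 6.32). The p53 targets summed to 1613 CPM in cluster 0, beside 1692, 1374 and 1479 CPM in clusters 1, 14 and 17. Of 11 Nrf2 targets, 9 were higher and 1 lower (median 1.9), led in level by Gclc of glutathione synthesis (286 and 3302 CPM, 3.09). The cytosolic ribosomal protein genes were higher in 76 of 79 cases and lower in none (median 0.98), and their sum went from 1607 CPM in Liver to 4727 CPM, beside 4921 CPM in cluster 1. Of 17 cell cycle genes, 10 were higher and none lower (median 0.66), from a low base: they summed to 26.1 CPM in Liver, 94.75 in cluster 0 and 201.1 in cluster 14. With all nuclei these lists gave 11 and 0, 10 and 1, 77 and 0, and 12 and 1. Of 12 acute phase genes, 8 were higher and 2 lower than in Liver (8 and 1 with all nuclei) and 5 were higher and 5 lower than in Cell Suspension, with Lcn2, an iron-binding lipocalin, at 2.09 and 282 CPM (6.47), and C-reactive protein Crp lower (-2.32).

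Of 8 hypoxia genes 5 were higher and none lower than in Liver (6 and 0 with all nuclei). Their sum was 862.6 CPM in cluster 0, below the 1391, 1213 and 1443 CPM of clusters 1, 14 and 17. Heat shock genes and genes of the unfolded protein and integrated stress responses depended on the comparison. Of 7 heat shock genes 4 were higher and 1 lower than in Liver (6 and 0 with all nuclei), and 2 were higher and 4 lower than in Cell Suspension (2 and 2). Of 9 genes of the unfolded protein and integrated stress responses 3 were higher and 2 lower than in Liver (5 and 2), and 1 was higher and 4 lower than in Cell Suspension (1 and 4). Of 9 small proline-rich and keratin genes 4 were higher and none lower than in Liver, and with all nuclei 4 and 1 of 10. Against Cell Suspension 2 were higher and 2 lower, and with all nuclei 1 and 3. Fetal liver genes, with 2 of 8 in each direction (1 and 2 with all nuclei), and mitochondrially encoded genes, with 3 of 13 higher (4 with all nuclei), had shares of higher genes near the 22.6% of all genes in the cluster 0 fit.

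Glycolysis genes differed by isoform. Of 11, 7 were higher and 4 lower than in Liver (median 2.33), and of 12 tested with all nuclei 8 and 4 (median 1.26). Pkm, the general pyruvate kinase, averaged 1.27 CPM in Liver and 315 in cluster 0 (7.32), and Pfkp, a phosphofructokinase, 1.33 and 169 CPM (6.47). By mouse, Pkm ran from 227.1 to 393.5 CPM in cluster 0 and from 233.5 to 393 CPM in cluster 1. The liver glucose transporter gene Slc2a2 (255 and 18.7 CPM, -4.29) and the liver pyruvate kinase Pklr (228 and 60.0 CPM, -2.40) were lower. Pklr in cluster 0 nonetheless lay above clusters 1, 14 and 17, at 11.6, 10.8 and 5.93 CPM.

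The hepatocyte programme was lower throughout. All 20 hepatocyte products and enzymes were lower than in Liver (median -3.22) and than in Cell Suspension (median -4.05), also with all nuclei of each sample. They summed to 5069 CPM in cluster 0, 22852.5 in Liver and 31979.3 in Cell Suspension. Cyp7a1, the rate-limiting enzyme of bile acid synthesis, had the largest fall among genes named by the rule for falls, from 170 to 1.21 CPM (log2 difference -7.61, SE 0.48, and -6.23 in all nuclei, edgeR adjusted p = 1.8e-12). Alb, albumin, averaged 2867 CPM in Liver and 1195 in cluster 0 (-1.72), with -0.71 for spliced and -2.68 for unspliced counts alone. Of 16 liver transcription factors, 14 were lower and none higher than in Liver (median -2.11, and 14 and 1 with all nuclei). Nr1i3, the drug receptor CAR, fell to 0.865 from 61.1 CPM (-6.72), whereas Hnf4a fell from 436 to 199 CPM (-1.60) and Prox1, a regulator of liver development, from 496 to 200 CPM (-1.75). The 3 factors that stood above cluster 1, Nr1h4, Nr1i2 and Nr5a2, were also below Liver, by -2.82, -2.09 and -2.05.

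Droplet libraries carry free RNA, so the remaining hepatocyte RNA was set beside that in the cultured endothelial nuclei. Only 6 of the 20 products and enzymes had a higher mean in cluster 0 than in endothelial nuclei, and Alb stood at 1195 CPM against 1317. At 1000 UMIs Alb had a UMI in 59.4% of cluster 0 and 68.8% of endothelial nuclei, and before thinning it averaged 10.33 and 2.263 UMIs per nucleus. The nuclei had median depths of 7372 and 1351 UMIs, and the part of depth in the CPM values compared here was not tested. For the 14 that were not higher, free RNA and expression were not told apart. Among the 6 were Trf, transferrin (1038 against 394 CPM), and Apob, an apolipoprotein (621 against 305 CPM). Of the 16 liver transcription factors, 12 were higher in cluster 0, with Hnf4a at 199 against 60.2 CPM and Prox1 at 200 against 64.1 CPM. The epithelial keratins Krt8 (437 against 116 CPM) and Krt18 (508 against 146 CPM) were also above the endothelial nuclei. The list of small proline-rich and keratin genes that holds them summed to 1090 CPM in cluster 0 and 288 in endothelial nuclei. It summed to 77.4 CPM in Liver hepatocyte nuclei and to 1103 CPM in Cell Suspension hepatocyte nuclei, the latter near cluster 0. The label of hepatocyte was not tested by these levels.

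Markers of other cell types were present at different levels. None of 12 endothelial markers was higher in cluster 0 than in endothelial nuclei, and they summed to 109.3 CPM in cluster 0 against 6421 CPM there and 50.0 CPM in Liver hepatocyte nuclei. Kupffer cell markers summed to 13.2 CPM and mesothelial markers to 4.02 CPM, near the 12.8 and 2.90 CPM of Liver hepatocyte nuclei. Stellate markers summed to 136.1 CPM, of which 115.9 CPM were Reln, against 320.2 CPM in cluster 1 and 31.9 CPM in Liver. Leukocyte markers summed to 70.2 CPM, of which 48.0 CPM were Themis, known from T cells, against 36.5 CPM in cluster 1 and 23.9 CPM in Liver. The part of other cells or their free RNA in these sums was not tested.

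Zonation, the division of hepatocytes into those near the central vein and those near the portal tract, was read from 10 pericentral and 10 periportal genes. In cluster 0, all 10 pericentral genes were lower than in Liver and none higher (median -4.68), and 8 of 10 periportal genes were lower and 1 higher (median -3.67), with the same counts for all nuclei of each sample. At 1000 UMIs a nucleus of cluster 0 held a mean of 0.107 pericentral and 1.54 periportal UMIs, against 2.16 and 9.44 in Liver. The rank correlation of the 2 sums across nuclei was -0.533 ± 0.103 (mean and SD over 8 mice) in Liver and 0.013 ± 0.039 in cluster 0. This is a description over nuclei that share a library. With so few pericentral UMIs a correlation near 0 in cluster 0 says only that opposition was not detectable at this depth. Both kinds of UMI occurred in 5.98% of cluster 0 nuclei, and 6.03% would be met if they were independent.

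**Figure D3:**
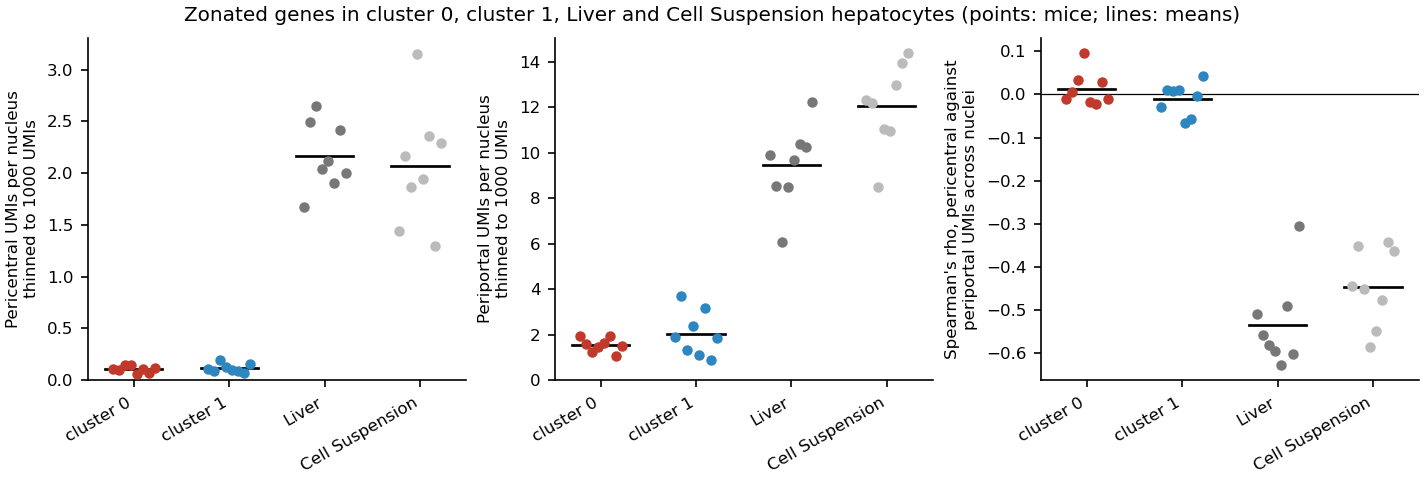
Pericentral and periportal UMIs per nucleus thinned to 1000 UMIs, and their rank correlation across nuclei, for each mouse in cluster 0, cluster 1, Liver and Cell Suspension hepatocytes. The correlation lies between -0.022 and 0.095 in cluster 0 and between -0.626 and -0.306 in Liver.

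Variation among the nuclei of cluster 0 was described by principal components at 1000 UMIs and over 2000 variable genes. The first held 1.2% of the variance, a share that sampling of so few UMIs and the number of genes also set, and 10.9% of that component lay between mice. Its 10 leading genes at one end were Adk, Gfra1, Cps1, Mtss1, Ugp2, Ddc, Pid1, Gclc, Rapgef4 and Tox. At the other end they were Malat1, Lpp, Egfr, Actn1, Pdlim5, Ptprk, the marker Anxa3, Mical2, Cdk6 and Runx1. Among these, Cps1 encodes the first enzyme of the urea cycle, and Actn1 and Pdlim5 are members of the actin and focal adhesion list. All 10 leading genes of either end were the same with 1000 variable genes. The second component (0.569%) lay more between mice (25.8%), with Pdzrn3 among the leading genes of one end, and the third was correlated with the depth before thinning (rank correlation -0.463 across nuclei, a description).

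The nuclei of cluster 0 gave more UMIs than those of the other cultured clusters. The mean over mice of the median UMIs per nucleus was 7517 in cluster 0, 6141 in cluster 1, 5813 in cluster 14 and 4644 in cluster 17. UMIs per nucleus were 1.24-fold, 1.31-fold and 1.65-fold higher than in clusters 1, 14 and 17, in 8 of 8 mice each (exact two-sided sign-flip test over mice, p = 0.00781, the smallest possible with 8 pairs, and 0.0117 adjusted over 9 tests). Spliced RNA made up 27.4% of spliced and unspliced UMIs together, against 28.6%, 30.5% and 31.9% in the others, and was lower in 8 of 8 mice in each comparison (adjusted p = 0.0117, same exact test). Depth and splicing were not entries of the rule, but they come from the same counts as the clustering, and their part in the cluster assignment was not tested. The share of hashtag UMIs that carried the assigned tag, a measure of sample assignment, averaged 45.4% in cluster 0 and 45.1% in cluster 1, a difference of 0.290 points that did not pass (exact adjusted p = 0.719). It was 3.17 points higher than in cluster 17, in 7 of 8 mice (exact adjusted p = 0.0201).

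**Figure D4:**
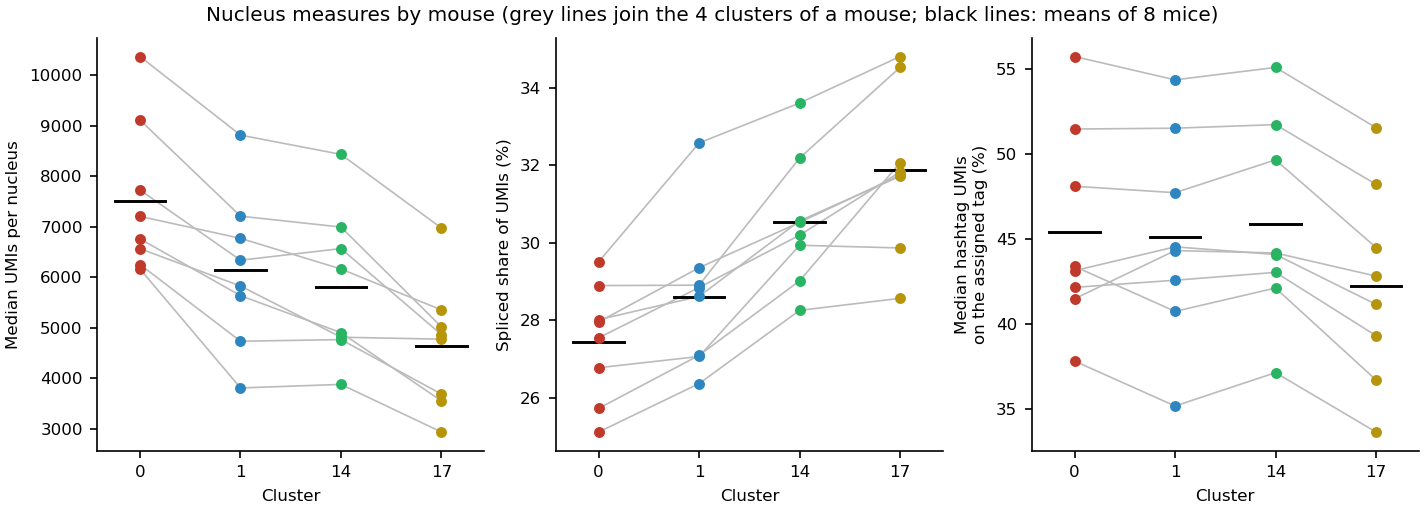
UMIs per nucleus, share of spliced UMIs and share of hashtag UMIs that carried the assigned tag for each mouse in the 4 cultured hepatocyte clusters, with grey lines joining the clusters of a mouse and black lines for the means. Spliced UMIs average 27.4% in cluster 0 and 31.9% in cluster 17.

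Every culture contained cluster 0. It held 39.8% ± 10.5 (SD, n = 8) of cultured hepatocyte nuclei, from 21.1% in mouse 6 (95% exact binomial interval 19.2 to 23.2, counting error only) to 55.4% in mouse 1 (53.2 to 57.5). Mice 1 and 6 shared pool 3, where mouse 5 had 36.6%, so the range was found within 1 library. The values were 31.8% and 47.2% in pool 4, 44.6% and 44.4% in pool 5, and 37.5% in pool 2, which held 1 culture. Cluster 1 took 40.1% ± 7.29, cluster 14 11.3% ± 2.79 and cluster 17 8.75% ± 5.59, and mouse 6 had the highest share of cluster 17, at 20.2%. Among nuclei of at least 1000 UMIs the mean share of cluster 0 was 39.9%. Before culture few nuclei carried the cluster label. They were 0 of 20024 Liver nuclei, which allows a share of up to 0.0150%, and 16 of 15049 Cell Suspension nuclei (0.106%, 95% exact interval 0.0608 to 0.173). These limits pool nuclei over mice and pools and cover counting error only. Pool 4 gave 8 of the 16, from 2471 Cell Suspension nuclei. The label was itself drawn from gene expression, so these shares are descriptions.

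**Figure D5:**
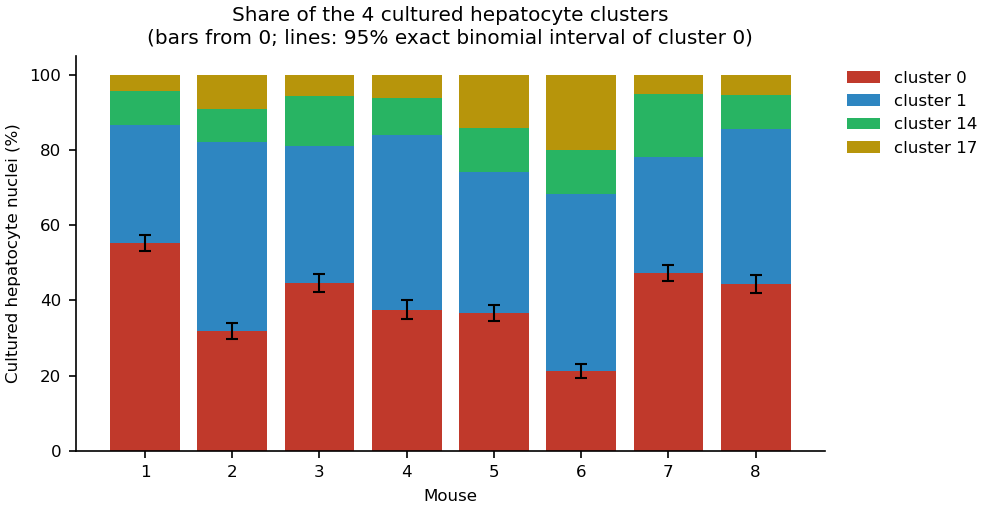
Share of each of the 4 cultured hepatocyte clusters (percent of cultured hepatocyte nuclei) in every mouse, with lines for the 95% exact binomial interval of cluster 0. Cluster 0 takes 21.1% in mouse 6 and 55.4% in mouse 1.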

How the data were processed

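Single-nucleus RNA was measured in 24 samples of 8 mice. The authors pseudo-aligned the reads of 6 pools with Salmon Alevin 1.9.0 and Alevin-fry 0.7.0 to GRCm38, and deposited raw UMI counts of spliced, unspliced and ambiguous RNA for 32285 genes. The deposited hashtag matrices hold counts of hashtag UMIs, and the authors' table gives the sample, cluster and cell type of each singlet, with other columns not used here. The hashtag CD2 was taken for mouse 2 of Cell Suspension.

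The 3 splicing states were added and summed per mouse over cluster 0, the other cultured hepatocyte clusters, and Liver and Cell Suspension hepatocyte nuclei. Genes with at least 10 counts were tested with edgeR 4.0.16 (R 4.3.3, TMM, quasi-likelihood test, Benjamini-Hochberg threshold of 0.05), with 1 coefficient per group and no covariate. Clusters were compared without a test as log2(CPM + 1) differences within each mouse. Measures per nucleus were compared with exact paired sign-flip tests. Nuclei were thinned to 1000 UMIs for shares, zonation and principal components. The edgeR step was tested on simulated data. Levels are plain CPM without TMM scaling. No doublets were removed beyond those the authors had left out. Tables and tests used pandas 2.3.3, scipy 1.17.1 and numpy 2.4.6 in Python 3.11.15, with plots from matplotlib 3.10.9.

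The markers and the 30 gene lists were chosen with earlier results of these data known. Genes named are the markers, list members, the 10 genes highest and 10 lowest over cluster 1 and the 5 over clusters 14 and 17. The 5 largest rises and falls against Liver are added. Genes of these rankings had a mean of at least 50 CPM in at least 1 group. Over the clusters they had the same direction in every mouse, and against Liver the samples did not overlap. Single-gene values of some genes covered by this rule are not reported here. The leading genes of principal components are named in addition. Mouse numbers mark the same liver. Over 3804 genes, the deviations of cluster 0 and of Liver samples of the same mouse correlated with a median of 0.046 (-0.087 to 0.208) and those with Cell Suspension with -0.005 (-0.094 to 0.118), and the own mouse gave the best match in 2 of 8. Alternatives were another normalization, filter, tool, count layer, set of nuclei, pseudocount or depth, the mouse as a block, the pool as a covariate and leaving out each mouse. Intervals cover counting error only.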

Additional observations from a re-analysis of the deposited data

Results flagged for a closer look

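Among 45 values looked at, 1 had a sample set apart from the other 7 of its group, and chance alone sets such a flag in about 1 in 20 groups. Mup10 in cluster 0 stood at 1.77 CPM in mouse 4, with the next at 0.951 CPM, and reads common to the near-identical Mup genes make its level uncertain.

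Outside the comparisons, 16 nuclei with a Cell Suspension hashtag carried the cluster 0 label, against 0 in Liver. Their median share of hashtag UMIs that carried the assigned tag was 46.65%, beside 47.46% in other Cell Suspension nuclei and 45.82% in cluster 0 nuclei of Primary Hepatocytes. By pool they numbered 0, 2, 3, 8, 1 and 2 in pools 1 to 6. Pools 1 and 6 held no cultured samples, and 2 of the 16 nuclei came from them.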

How the results depend on the processing

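Of 12594 genes called against Liver, thinning all samples to the smallest total left 6689 and a fold of at least 1 on the log2 scale 7695, and of 12116 against Cell Suspension 6481 and 7399. Leaving out a mouse gave 11891 to 12180 and 11484 to 11702, DESeq2 12603 and 12073, the pool as a covariate 11205 and 11798, and the mouse as a replicate block 12759 and 12222. Among the 8 markers the block turned the direction of Pdzrn3 and changed no other call. RLE normalization moved the median gene against Liver from -0.03 to 0.09 and the share of higher genes among those called from 46.0% to 52.4%.

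The 138 genes apart from cluster 1 became 83 after thinning nuclei, 70 with a minimum of 50 CPM and 86 with a pseudocount of 5. The 884 apart from cluster 14 became 365 with 50 CPM and 500 with spliced counts. The 741 apart from cluster 17 became 423 after thinning and 489 with 50 CPM. Without a mouse they ranged from 138 to 172, 907 to 946 and 775 to 890. The rule asks for every mouse, so leaving out a mouse loosens it and higher counts follow from the rule itself.

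Without the replicate block, the differences in UMIs per nucleus of 0.31 to cluster 1 and 0.39 to cluster 14 (log2) lost their call (exact permutation, adjusted p = 0.139 and 0.0671). The hashtag difference to cluster 1 ranged from -0.0459 to 0.736 points without a mouse and was negative without mouse 3 (-0.0450) or mouse 7. The first component held 2.00% of the variance with 1000 variable genes.

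Pdzrn3 against Liver turned to -0.68 with the block, -0.34 with the pool, -0.62 with all cultured hepatocyte nuclei, -0.53 with all nuclei and -0.04 without mouse 3, and ranged from -0.46 (without mouse 7) to 0.51. Against Cell Suspension it turned to -0.44, -0.091, -0.42 and -0.31 in the same order, to -0.24 with spliced counts, and ranged from -0.32 (without mouse 7) to 0.62. Pkhd1 against Liver turned to -0.083 with the pool, -0.80 with all cultured hepatocyte nuclei and -0.61 with all nuclei, and against Cell Suspension to -0.73 and -0.64 with the last 2. The cause of these changes was not tested. Aldh1a1 against Cell Suspension gained a call with all cultured hepatocyte nuclei (-1.10), all nuclei (-0.93) and spliced counts (-1.30). Over all alternatives, 731 values kept their call or stayed near their main value, 19 turned direction, 12 moved, 7 gained and 3 lost a call.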
